A study of Mus musculus with 12 samples.

Results

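The endoplasmic reticulum (ER) stress response and the integrated stress response were described in mouse liver by 39 genes, out of 49398 genes in the count table. The genes were taken by symbol: 14 ER chaperones and folding factors, 4 stress sensors and their factors, 8 genes of ER-associated degradation, and 13 genes of the ATF4 branch. Of these, 38 had enough reads to be tested among 13814 genes. Phgdh, a serine synthesis enzyme, was not tested, since it stayed at or under 0.515 CPM, reads scaled to a common library size, in every liver.

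The animals were wild-type C57BL/6J mice, aged 9 months at feeding, given AIN-93G diet for 8 weeks and killed after a 5-hour fast. The control group (CTRL) had the diet without added oil. The other 2 groups had it with VLCPUFA concentrate added at 1% (VLC1) or 5% (VLC5) by weight, a fish oil whose fatty acids are polyunsaturated and of very long chain. Each diet had 4 livers, 2 from females and 2 from males, profiled by stranded mRNA sequencing. The labels give each liver its own replicate number but do not say more about the animals, so the p-values cover the spread between these 12 samples.

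Secretory proteins fold in the ER with the help of chaperones, and hepatocytes export large amounts of them. When folding falls behind, 3 membrane sensors respond: Atf6, Ern1 (the kinase IRE1α, which splices Xbp1 mRNA) and Eif2ak3 (the kinase PERK). ATF6 and spliced XBP1 raise chaperones and the degradation machinery. PERK phosphorylates eIF2α, which slows translation and favours ATF4, a factor for amino acid synthesis and stress genes that other eIF2α kinases also reach.

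Total estimated reads per liver ran from 5291385 to 15674130. Summed levels of 10 hepatocyte markers were between 104750 and 203264 CPM in all livers, as the tissue label says. A pair of libraries stood apart. The summed level of 7 nuclear noncoding RNAs, among them Malat1 and Neat1, was 901 CPM in control female N979 and 1270 CPM in 5% female N988, against 274 to 731 CPM in the other 10. N979 was also the shallowest library. Counts of called genes are given with and without these livers, a choice made after seeing the data. N979 also had the lowest mean chaperone level of the controls (-0.25), and N988 the lowest on 5% oil (-0.77, both log2 relative to the 12-liver mean). Leaving them out therefore moves both groups away from the 1% livers, so that fit is no independent check of the chaperone differences. In bulk tissue, fewer cells of a type and less RNA per cell cannot be told apart.

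Chaperones and the ATF4 branch answer to different promoter elements, so the elements found in the genes followed below are shown first. RefSeq promoters (GRCm38.p6, 300 bases each, 250 of them before the start site) were found for 34 of the 39 genes, and not for Atf6, Derl1, Hyou1, Manf and Ppp1r15b. The ER stress element ERSE, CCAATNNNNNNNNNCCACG on either strand, was present in 7 of 12 chaperone promoters (Hspa5, Hsp90b1, Pdia6, Calr, Canx, Dnajc3 and Creld2), in 2 of 7 degradation genes (Derl3 and Syvn1) and in 0 of 12 ATF4 branch genes. It was present in 0.119% of all 32851 promoters. The CARE element of ATF4 and its partners, TGATGNAA on either strand, was in 5 of 12 ATF4 branch promoters (Atf3, Trib3, Asns, Chac1 and Nupr1), in 1 degradation gene (Herpud1) and in 0 of 12 chaperones, against 3.97% of all promoters. The related element ERSE-II was in Dnajb11 and Herpud1 and in 0.0365% of all promoters. The XBP1 element UPRE, TGACGTGG, was in 0 of 34 and in 0.676% of all promoters. Listed genes were counted once if any of their promoters matched, while the shares of all promoters were counted per promoter. These matches are letters in a window and not measured binding, and the 4 elements were searched for separately.

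In the windows below, capitals mark the element. For Hspa5 and Creld2 they mark ERSE, which in Creld2 lies on the opposite strand. For Atf3, Chac1, Asns and Nupr1 they mark CARE, which lies on the opposite strand in all but Asns. The match in Trib3 falls after the start site and is not printed. Hspa5 lies on the plus strand at chr2:34771985-34772083, Creld2 on the plus strand at chr15:88819480-88819578, Atf3 on the minus strand at chr1:191183396-191183483, Chac1 on the plus strand at chr2:119351009-119351096, Asns on the minus strand at chr6:7693210-7693272 and Nupr1 on the minus strand at chr7:126625533-126625620, all in GRCm38.p6 and upstream of the annotated start. The ERSE of Hspa5 ended 46 bases before the start site and that of Creld2 107 bases before it.
Hspa5: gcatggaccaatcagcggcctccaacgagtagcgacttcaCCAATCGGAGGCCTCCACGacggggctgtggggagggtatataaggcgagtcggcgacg
Creld2: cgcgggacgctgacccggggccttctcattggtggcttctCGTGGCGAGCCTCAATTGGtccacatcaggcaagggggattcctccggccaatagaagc
Atf3: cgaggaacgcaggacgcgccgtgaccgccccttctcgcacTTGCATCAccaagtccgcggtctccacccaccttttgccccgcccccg
Chac1: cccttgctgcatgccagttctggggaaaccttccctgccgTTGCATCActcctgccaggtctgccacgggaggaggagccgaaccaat
Asns: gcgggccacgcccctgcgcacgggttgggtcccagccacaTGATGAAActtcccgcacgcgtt
Nupr1: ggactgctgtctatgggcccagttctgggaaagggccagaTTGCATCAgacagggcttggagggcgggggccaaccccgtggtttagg

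The ER chaperones were lower in livers on 1% oil than in controls in point estimate, gene by gene. On 5% oil they lay on both sides of the control level. All 14 had a negative log2 fold change at 1%, with a median of -0.80, where 49.9% of all tested genes were negative and the median was 0.00. None of the 14 passed the adjusted threshold of 0.05 in edgeR's quasi-likelihood test, while 14 of 14 had an unadjusted p under 0.05, against 11.1% of all genes. DESeq2 called 6 of the 14 and limma voom 0, where they called 268 and 42 genes in all. At 1%, 0.0869% of all genes were called lower and 0.138% higher. Without N979 and N988, the control and the 5% liver with the lowest chaperone means, 10 of the 14 chaperones were called lower at 1%. In the same fit 14 of 14 had an unadjusted p under 0.05. In that fit 1.79% of all genes were called lower, and 21.2% had an unadjusted p under 0.05.

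**Figure D1:**
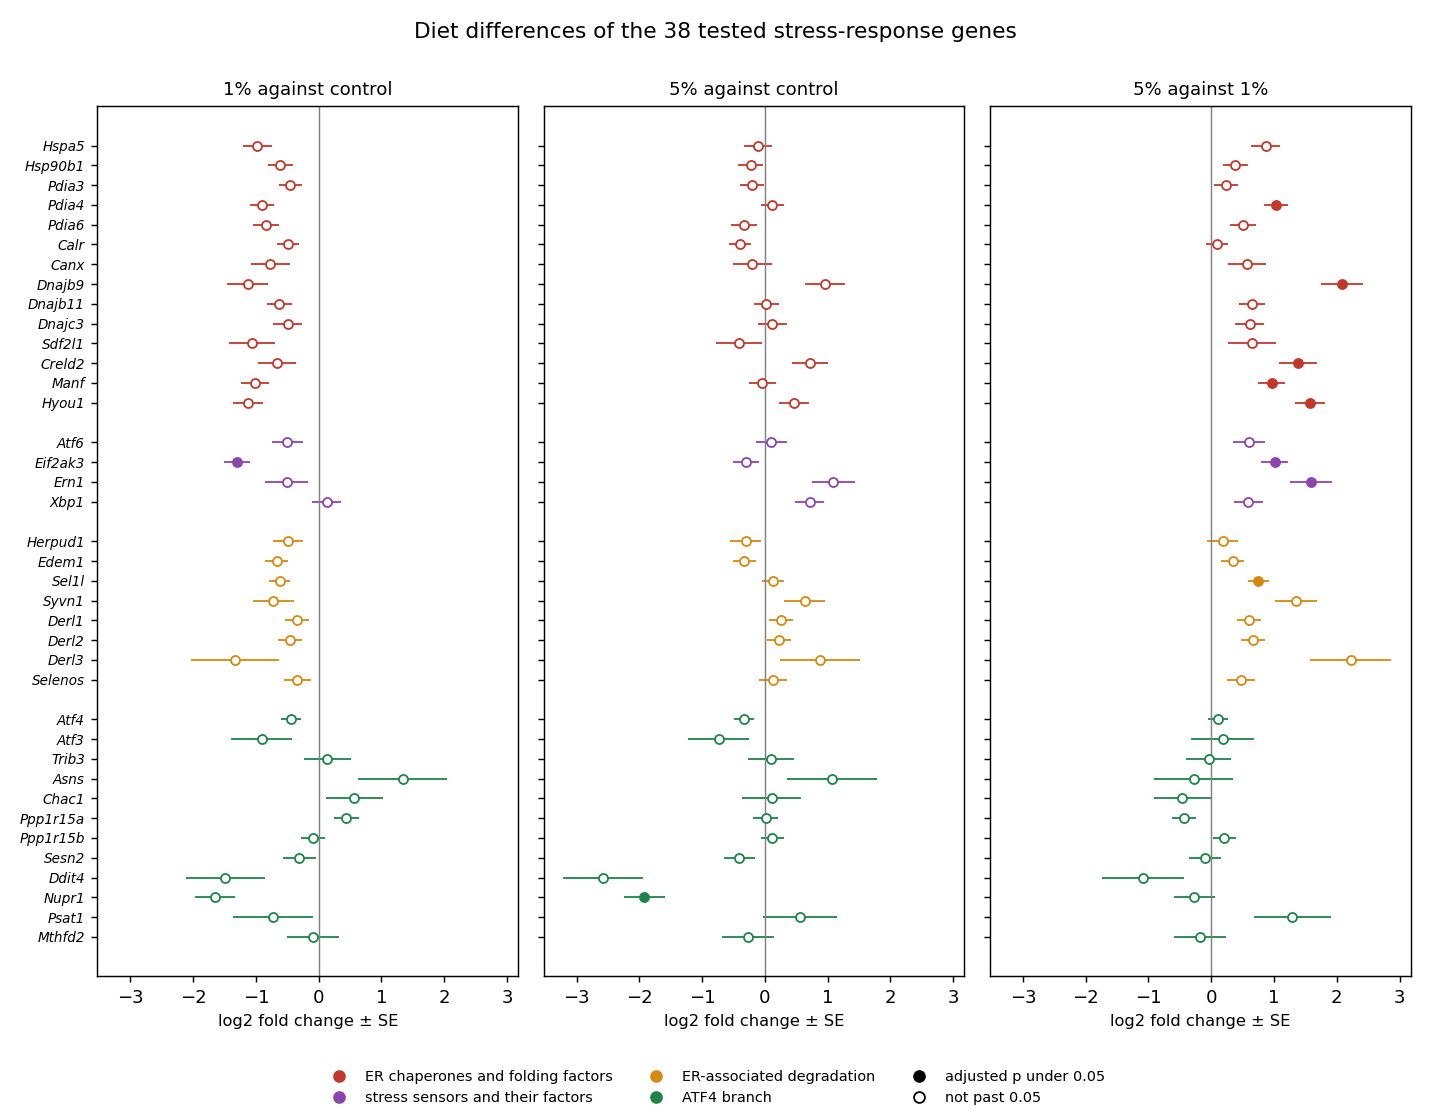
Log2 fold change (x axis) with its standard error for each of the 38 tested genes (y axis), by gene class, in the 3 diet comparisons. Filled points passed an adjusted p of 0.05. All 14 chaperones lie left of 0 for 1% against control and right of 0 for 5% against 1%, and the ATF4 branch genes scatter on both sides.

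Hspa5 (ENSMUSG00000026864) encodes BiP, the ER Hsp70 that binds unfolded chains and holds the sensors inactive. It measured 764 and 1226 CPM in the control females, 1208 and 1504 in the control males, 475 and 452 in the 1% females, 762 and 744 in the 1% males, 1004 and 494 in the 5% females and 1442 and 1640 in the 5% males. All 4 livers on 1% oil lay below all 4 controls, by a margin of 762 against 764 CPM at the boundary, and female N988 was as low as the 1% females. Hspa5 was -0.98 ± 0.23 (log2 fold change ± SE, here and below) at 1% (adjusted p = 0.0951), -0.11 ± 0.23 at 5% against control (adjusted p = 0.894) and 0.87 ± 0.23 at 5% against 1% (adjusted p = 0.0764). None of these passed. The control mean was 1176 CPM ± 306 (SD, n = 4), the 1% mean 608 ± 168 and the 5% mean 1145 ± 509.

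Pdia4, a protein disulfide isomerase that forms and rearranges disulfide bonds, measured 185 and 240 CPM in control females and 298 and 311 in control males. On 1% oil it measured 112 and 95.3 CPM in females and 179 and 180 in males, and on 5% oil 248 and 139 CPM in females and 398 and 395 in males. Within each sex every 1% liver was lower than every 5% liver and every control. Pdia4 rose from 1% to 5% by 1.03 ± 0.19 (adjusted p = 0.0282). Its difference from control was -0.90 ± 0.19 at 1% (adjusted p = 0.0717) and 0.12 ± 0.19 at 5%.

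Hyou1, a large ER chaperone that exchanges nucleotide on BiP, measured 123 and 169 CPM in control females, 235 and 213 in control males, 64.9 and 65.3 in 1% females, 111 and 104 in 1% males, 268 and 103 in 5% females and 281 and 388 in 5% males. Each liver on 1% oil lay under every control liver. The 5% livers overlapped the 1% livers only through N988. Hyou1 had the smallest p of the set for 5% against 1%, a rise of 1.58 ± 0.24 (adjusted p = 0.0124), and read -1.12 ± 0.24 at 1% against control (adjusted p = 0.0729).

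Dnajb9 (ERdj4), a BiP cochaperone and a target of spliced XBP1, had the steepest rise between the oil doses among the called genes, 2.08 ± 0.33 (adjusted p = 0.0205). It measured 13.4 and 28.9 CPM in control females and 73.8 and 46.6 in control males, 10.9 and 8.28 in 1% females and 28.6 and 26.8 in 1% males, and 67.2 and 21.8 in 5% females and 94.1 and 123 in 5% males. In each sex the 5% livers lay above the 1% livers, and in each diet both males lay above both females. Against control, Dnajb9 was -1.13 ± 0.33 at 1% (adjusted p = 0.204) and 0.95 ± 0.32 at 5% (adjusted p = 0.155).

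Manf, an ER protein that stabilises BiP with its clients and is also secreted under stress, measured 119, 152, 134 and 212 CPM in the controls, 59.5, 57.3, 105 and 95.5 at 1%, and 146, 74.4, 187 and 215 at 5%, females first in each diet. All 1% livers were below all controls. Manf rose by 0.96 ± 0.22 from 1% to 5% (adjusted p = 0.0472), a call lost under RLE scaling, under the strict filter and in limma voom. It was -1.01 ± 0.22 at 1% against control (adjusted p = 0.0774).

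Creld2, a small ER protein with disulfide isomerase activity whose promoter element is printed above, measured 45.5, 49.4, 47.0 and 63.4 CPM in controls, 25.1, 33.9, 37.3 and 34.5 at 1% and 81.4, 28.8, 112 and 136 at 5%, females first. The 5% livers other than N988 were above every control, and N988 was within the 1% range. Creld2 rose by 1.38 ± 0.30 from 1% to 5% (adjusted p = 0.0447), a call lost in limma voom. Against control it was -0.66 ± 0.30 at 1% and 0.72 ± 0.29 at 5% (adjusted p = 0.438 and 0.278).

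The other 8 chaperones ranged at 1% against control from -0.45 ± 0.19 (Pdia3) to -1.06 ± 0.37 (Sdf2l1), and at 5% against 1% from 0.09 ± 0.17 (Calr) to 0.65 (Dnajb11 and Sdf2l1). Altogether 5 of 14 chaperones were called higher at 5% than at 1%, all 14 had a positive log2 fold change, and the median was 0.65. Among all genes, 0.861% were called higher and 0.471% lower in that comparison. At 5% against control 0 of 14 were called, 8 were negative and the median was -0.08. In females 11 of 14 were negative, with a median of -0.31, and in males 10 of 14 were positive, with a median of 0.21, a difference between the sexes that passed for none of them. Of all genes, 50.3% were negative in females and 45.8% in males. The 5% females were unlike each other, with chaperone means of 0.23 in N987 and -0.77 in N988. Over both sexes 3 of 14 were at an unadjusted p under 0.05, against 14.6% of all genes. DESeq2 and limma voom also called 0 there, of 736 and 370 genes called in all. Without N979 and N988 1 was called higher, against 0.611% of all genes. The 3 with that unadjusted p were Calr (-0.40 ± 0.17), Creld2 and Dnajb9. Here 1.19% of all genes were called higher and 1.27% lower.

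For 8 of 14 chaperones (Hspa5, Hsp90b1, Pdia4, Dnajb11, Sdf2l1, Creld2, Manf and Hyou1) every 1% liver lay below every control liver. Over all tested genes the same held for 2.03%. Within each sex, both 1% livers lay below both controls for 12 of 14, all but Canx and Dnajc3, against 5.54% of all genes. For 5% against 1% no chaperone had every 5% liver above every 1% liver, against 4.10% of all genes. Within each sex this held for 5 of 14 (Hspa5, Pdia4, Dnajb9, Manf and Hyou1), against 9.40% of all genes. Without N979 and N988 these counts were larger, as were the shares of all genes, since leaving out livers can only keep or raise them. All 14 chaperones then had every 1% liver below every control, against 9.10% of all genes, and within each sex, against 13.7%. For 5% against 1%, 10 of 14 had every 5% liver above every 1% liver, against 10.7% of all genes. Within each sex 13 of 14 did, all but Sdf2l1, against 16.2%.

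**Figure D2:**
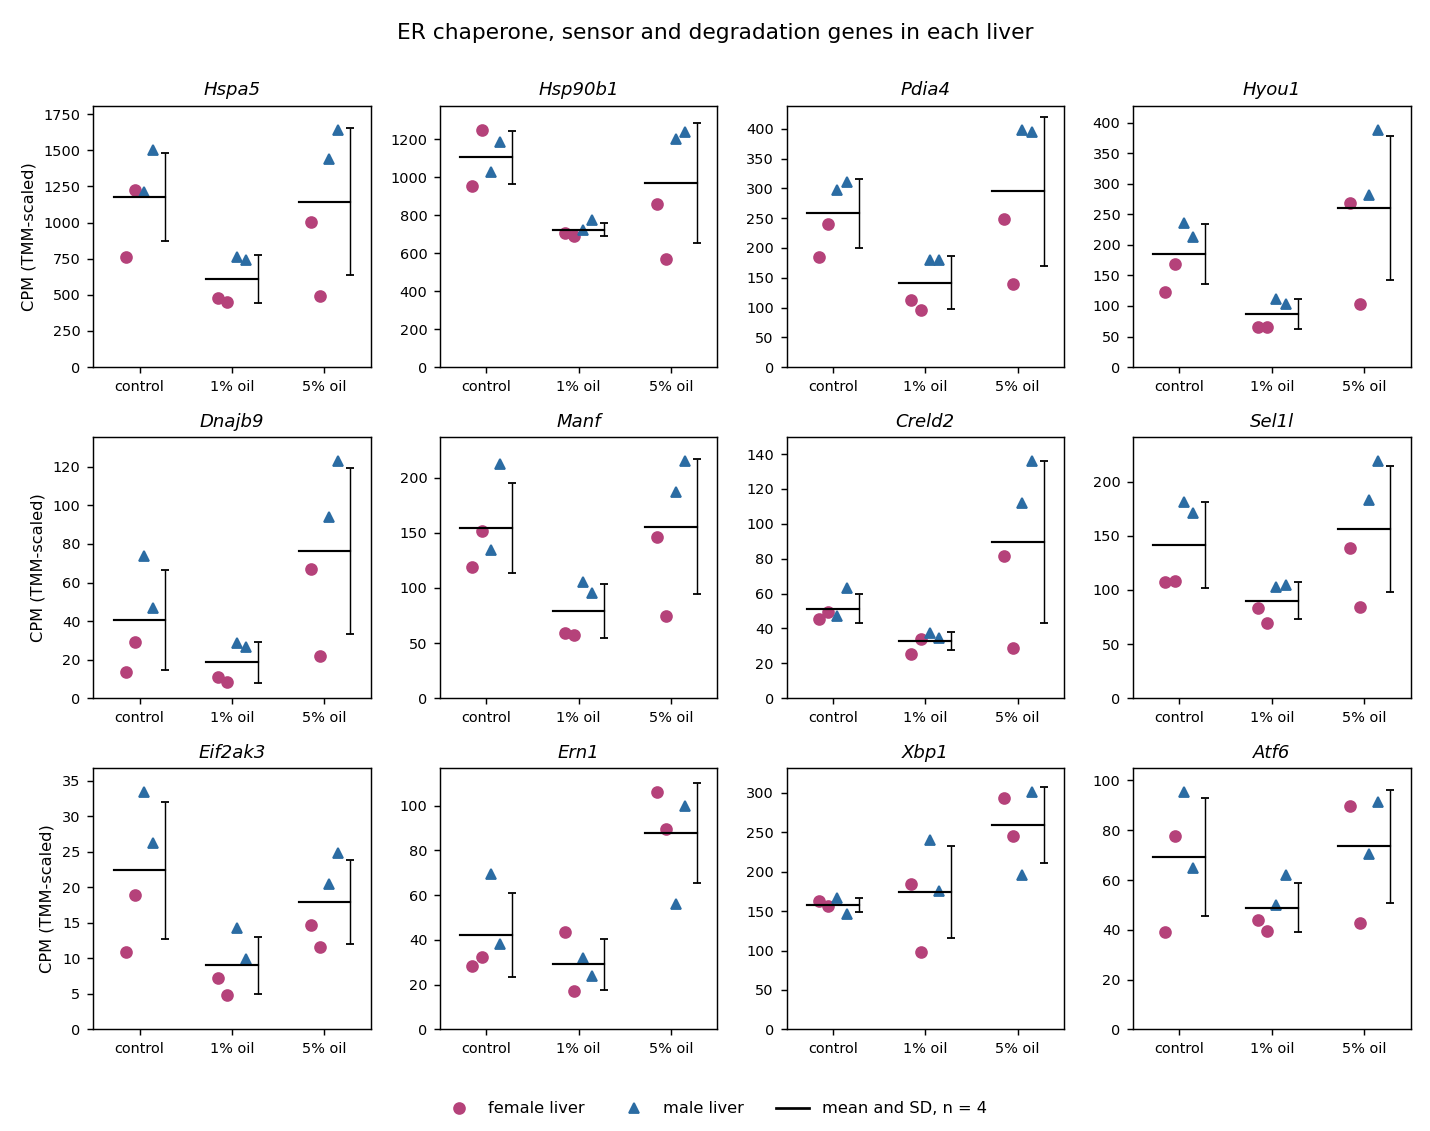
CPM after TMM scaling (y axis, from 0) in each liver by diet (x axis) for 12 ER genes. Circles are female livers, triangles male livers, and the line and bar give the mean and SD of 4 livers. The 1% livers are low for Hspa5, Hyou1 and Manf, where each is under all controls, and 1 female at 5%, N988, is low for the chaperones but not for Ern1 or Xbp1.

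The 14 chaperones varied together across the 12 livers. Pearson's r of log2 CPM with Hspa5 ran from 0.83 (Calr) to 0.98 (Dnajb11) for the other 13, with a median of 0.92. It was 0.49 to 0.93 for the degradation genes, with a median of 0.74, and -0.84 (Ppp1r15a) to 0.64 (Psat1) for the 12 ATF4 branch genes, with a median of 0.21. These values are descriptions over 12 libraries that share their depth, diet and sex across genes.

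Averaged over the 14 chaperones, log2 CPM relative to the mean of the 12 livers was -0.25 in N979 and 0.29 in N980, the control females, and 0.39 and 0.58 in the control males. On 1% oil it was -0.80 in both females and -0.23 and -0.20 in the males. On 5% oil it was 0.23 and -0.77 in the females, the second being N988, and 0.69 and 0.86 in the males. The 1% group therefore overlapped the control group through N979 and the 5% group through N988. ATF4 branch means stayed between -0.48 and 0.56 and overlapped between all diets. At 5% they were -0.23, -0.08, -0.16 and -0.06, and overlapped the controls only through N979 (-0.19). The other control means were 0.23, 0.26 and 0.56.

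**Figure D3:**
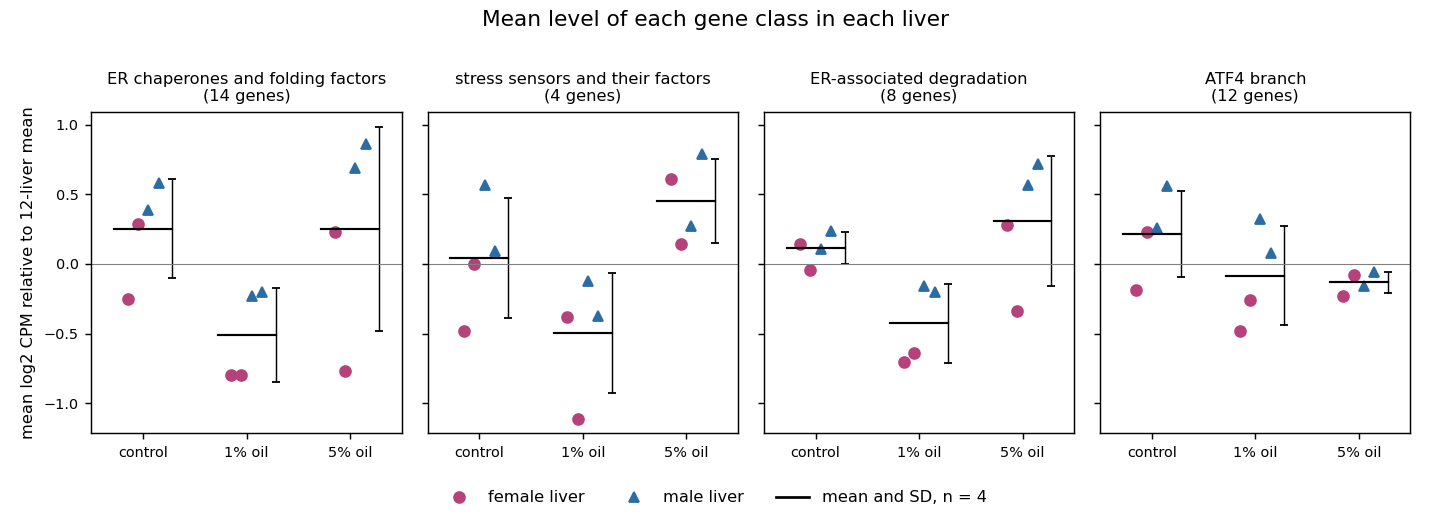
Mean log2 CPM of each gene class relative to its mean over the 12 livers (y axis), by diet (x axis), with the line and bar giving the mean and SD of 4 livers. Chaperones and degradation genes are low in all 4 livers on 1% oil and in 5% female N988. For chaperones, control female N979 (-0.25) is also as low as the 1% males (-0.23 and -0.20). The ATF4 branch lies within -0.48 to 0.56 throughout.

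Among the sensors, Eif2ak3 (ENSMUSG00000031668), which encodes PERK, was the single gene of the 38 called at 1% against control. It fell by 1.30 on the log2 scale (SE 0.21, adjusted p = 0.0223), and all 4 livers on 1% oil were under 3 of the 4 controls. It measured 10.9 and 18.9 CPM in control females, 33.4 and 26.3 in control males, 7.16 and 4.84 in 1% females, 14.2 and 9.86 in 1% males, 14.7 and 11.6 in 5% females and 20.5 and 24.8 in 5% males. The diets overlapped through N979, but within each sex both 1% livers lay below the controls and below the 5% livers. Eif2ak3 rose by 1.01 ± 0.21 from 1% to 5% (adjusted p = 0.0406) and was -0.30 ± 0.21 at 5% against control. The counts behind these values were 31 to 403 estimated reads a liver. The call at 1% was lost when any of N980, N967, N968, N984 or N972 was left out, with estimates between -1.44 and -1.16 over all left-out livers and settings. The count over the 38 genes at 1% was then 0, and it was 6 without N979 or without N988, 3 without N987 and 2 without N975. Over all genes, 31 calls became 24, 20, 19, 13 and 14 in the first 5 of these fits. They became 184, 40, 56 and 53 without N979, N988, N987 and N975.

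Ern1, the gene of IRE1α, was higher on 5% than on 1% oil by 1.59 ± 0.34 (adjusted p = 0.0432). It measured 28.1, 32.4, 69.6 and 38.2 CPM in controls, 43.4, 17.0, 31.8 and 23.9 at 1%, and 106, 89.5, 56.0 and 99.8 at 5%, females first. Each 5% liver was above every 1% liver, N988 included, and the highest control lay within the 5% range. Against control, Ern1 was 1.09 ± 0.34 at 5% (adjusted p = 0.126) and -0.51 ± 0.34 at 1%. The call between the doses was lost without N979 and N988, at the same estimate of 1.59.

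Xbp1, whose mRNA IRE1α splices, measured 163, 156, 167 and 147 CPM in controls, 184, 97.9, 240 and 176 at 1%, and 294, 246, 196 and 301 at 5%, females first. All 5% livers were above all controls, while the 1% livers spread across both. It was 0.71 ± 0.23 at 5% against control (adjusted p = 0.125), 0.13 ± 0.23 at 1% and 0.59 ± 0.23 at 5% against 1%, and passed in none. One transcript, Xbp1-201, held 88.4% to 96.7% of the estimated Xbp1 reads. None of the 4 Xbp1 transcripts in the GENCODE reference given here joins the ends of that transcript across a gap of 26 bases, the length IRE1α removes, so splicing was not analysed here.

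Atf6 measured 39, 77.8, 95.3 and 64.9 CPM in controls, 44.1, 39.4, 49.9 and 62.2 at 1% and 89.8, 42.8, 70.4 and 91.5 at 5%, females first. The diets overlapped, with N979 and N988 both low. Its differences were -0.50 ± 0.25 at 1%, 0.10 ± 0.25 at 5% and 0.60 ± 0.25 between the doses (adjusted p = 0.480, 0.922 and 0.234).

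ER-associated degradation extracts misfolded proteins from the ER and passes them to the proteasome. Of its 8 genes 1 was called, Sel1l, the scaffold of the Hrd1 ubiquitin ligase, which rose by 0.75 ± 0.17 from 1% to 5% (adjusted p = 0.0468). In that comparison 0.861% of all genes were called higher. Sel1l measured 107, 108, 181 and 171 CPM in controls, 83.0, 69.6, 103 and 105 at 1%, and 139, 84.5, 183 and 219 at 5%, females first. Every 1% liver was under every control, and both sexes had their 5% livers above their 1% livers. The call was lost under RLE scaling and in limma voom. At 1% against control it was -0.62 ± 0.17 (adjusted p = 0.166), and its reads were split over 10 transcripts in shares that varied between livers, so the gene sum is used.

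All 8 degradation genes were negative at 1% against control, median -0.56, and positive at 5% against 1%, median 0.64. Of all genes, 49.9% and 49.6% were negative in those comparisons. At 1% the values ran from -0.34 ± 0.22 (Selenos, a membrane selenoprotein) to -1.33 ± 0.70 (Derl3, a derlin at 11.3 CPM or less). At 5% against 1% they ran from 0.18 ± 0.24 (Herpud1, a ubiquitin-like organiser of the complex) to 2.22 ± 0.65 (Derl3). Syvn1, the Hrd1 ligase itself, was 1.35 ± 0.33 (adjusted p = 0.0682). For Syvn1 and Derl2 every 5% liver lay above every 1% liver, as for 4.10% of all genes. At 5% against control 0 of the 8 were called, 6 were positive and the median was 0.18. Without N979 and N988, 2 were called lower at 1%, 2 higher at 5% against control and 3 higher between the doses. In that fit the shares of all genes were 1.79%, 0.611% and 2.65%.

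The ATF4 branch did not move as 1 group. At 1% against control 0 of 12 were called, 8 were negative and the median was -0.20, with 4 at an unadjusted p under 0.05 (Atf4, Nupr1, Ddit4 and, higher, Ppp1r15a). Of all genes, 0.0869% were called lower and 11.1% had such a p. DESeq2 and limma voom each called 1, of 268 and 42 genes called in all. At 5% against control 1 was called lower, against 1.27% of all genes, 6 were negative and the median was -0.13. At 5% against 1% 0 were called, the median was -0.14, and 1 of 12, Ppp1r15a, had an unadjusted p under 0.05, a share below the 17.8% of all genes. DESeq2 and limma voom also called 0, of 711 and 183 genes called in all. Without N979 and N988 the calls were 1 lower, 1 lower and 0. In that fit 1.79% and 0.857% of all genes were called lower against control at 1% and 5%. Between the doses 2.65% were called higher and 0.815% lower.

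Nupr1 (ENSMUSG00000030717), a small stress-induced chromatin protein, was the single gene of the 38 called at 5% against control. It measured 9.61 and 21.7 CPM in control females, 9.09 and 12.7 in control males, 4.69 and 3.75 in 1% females, 4.44 and 3.55 in 1% males, 3.62 and 6.70 in 5% females and 1.85 and 2.40 in 5% males. All 8 livers on oil lay below all 4 controls, from 16 to 91 estimated reads a liver against 53 to 217. Nupr1 fell by 1.92 at 5% on the log2 scale (SE 0.32, adjusted p = 0.00712) and read -1.65 ± 0.32 at 1% (adjusted p = 0.0504). The 5% call held in the 10 other settings and in all 12 fits that left out 1 liver, with estimates from -2.42 to -1.63. In the authors' deposited table Nupr1 had a log2 fold change of -1.69 and an adjusted p of 0.0137, for a contrast that the table does not name.

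Ddit4 (REDD1), an inhibitor of mTORC1 that stress and fasting signals induce, spread widely among controls, at 5.62, 22.5, 20.5 and 55.0 CPM. It measured 4.69, 17.0, 5.29 and 7.59 CPM at 1% and 2.81, 3.39, 7.87 and 3.26 at 5%, females first. Only N979 among the controls lay within the range of the 5% livers. The difference at 5% against control was -2.58 ± 0.64 (adjusted p = 0.0672). For its unnamed contrast, the authors' deposited table gave a log2 fold change of -1.91 and an adjusted p of 0.0659.

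Atf4, the branch's transcription factor, which is regulated mainly through translation, measured 129, 107, 127 and 152 CPM in controls, 99.5, 101, 89.1 and 91.4 at 1% and 94.4, 127, 98.7 and 90.6 at 5%, females first. All 1% livers were below all controls and N988 alone among the 5% livers was within the control range. The differences, -0.44 ± 0.16 at 1% and -0.33 ± 0.16 at 5%, did not pass (adjusted p = 0.313 and 0.360).

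Atf3, a stress-induced repressor, measured 2.54, 4.10, 2.51 and 4.08 CPM in controls, 0.770, 0.937, 4.10 and 1.38 at 1% and 2.5, 2.36, 0.926 and 1.97 at 5%, females first. The 5% livers lay under all controls by a narrow margin, and 1 male at 1% was as high as the highest control. Its differences were -0.91 ± 0.49 and -0.74 ± 0.48 (adjusted p = 0.515 and 0.537).

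Trib3, a pseudokinase that binds ATF4 and AKT, measured 9.61, 6.90, 4.70 and 5.69 CPM in controls, 4.39, 5.15, 7.43 and 14.6 at 1% and 5.00, 6.99, 11.8 and 6.52 at 5%, females first. The diets overlapped throughout. Its difference was 0.14 ± 0.37 at 1% and 0.10 ± 0.37 at 5%.

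Chac1, which degrades glutathione, measured 2.18, 2, 2.51 and 5.05 CPM in controls, 3.23, 2.65, 9.31 and 2.37 at 1% and 3.87, 3.31, 1.5 and 3.26 at 5%, females first. Again the diets overlapped, and its differences of 0.57 ± 0.46 and 0.11 ± 0.47 did not pass.

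Asns, asparagine synthetase and a standard ATF4 target, was low and uneven. It measured 0.181, 0.400, 2.82 and 1.07 CPM in controls, 0.385, 0, 11.3 and 2.47 at 1% and 0.437, 0.663, 2.08 and 5.78 at 5%, females first, from 0 to 132 estimated reads. Males were above females in each diet. Diet differences were 1.34 ± 0.71 at 1% and 1.07 ± 0.72 at 5% (adjusted p = 0.504 and 0.561).

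The remaining tested ATF4 branch genes were Ppp1r15a and Ppp1r15b, the phosphatase subunits that reverse eIF2α phosphorylation, Sesn2, an mTORC1 inhibitor, and Psat1 and Mthfd2 of serine and one-carbon synthesis. Their differences ran from -0.73 ± 0.64 (Psat1) to 0.44 ± 0.20 (Ppp1r15a) at 1% and from -0.41 ± 0.25 (Sesn2) to 0.56 ± 0.59 (Psat1) at 5%, and none passed.

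**Figure D4:**
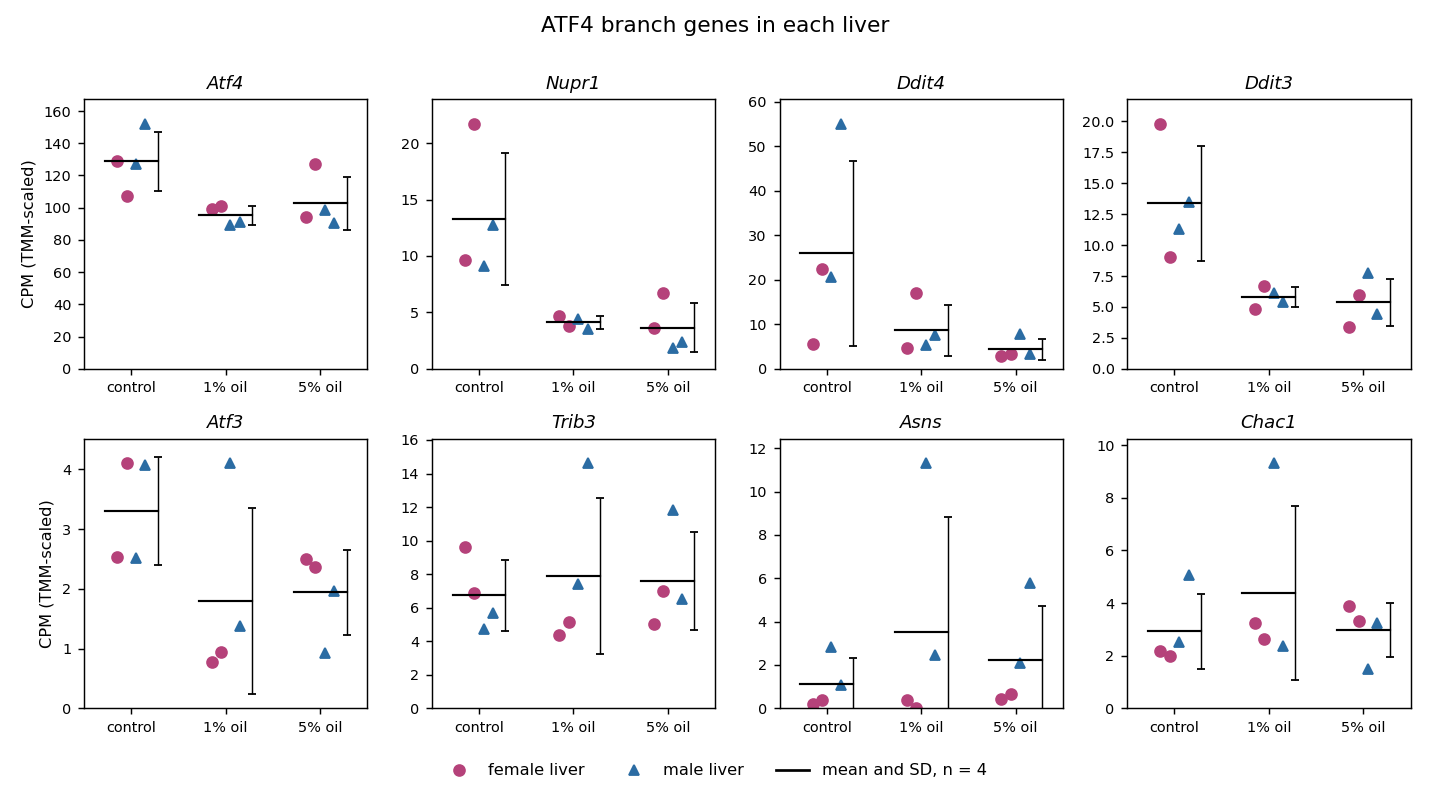
CPM after TMM scaling (y axis, from 0) in each liver by diet (x axis) for 7 ATF4 branch genes and Ddit3, with circles for females, triangles for males, and the mean and SD of 4 livers, where SD bars stop at 0. Nupr1 is lower in all 8 livers on oil than in all 4 controls, while Trib3, Asns and Chac1 overlap between the diets.

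Ddit3, which encodes CHOP, the factor that ER stress induces below ATF4, was in a wider list of 107 pathway genes outside the 39. It measured 19.8, 9.00, 11.3 and 13.5 CPM in controls, 4.85, 6.71, 6.15 and 5.42 at 1% and 3.37, 5.96, 7.76 and 4.43 at 5%, females first. All 8 livers on oil lay below all controls. Ddit3 fell by 1.33 at 5% on the log2 scale (SE 0.29, adjusted p = 0.0278) and was -1.21 ± 0.29 at 1% (adjusted p = 0.110).

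Of the 107 genes 103 were tested. At 1% against control 0 were called and 87 were negative, with a median of -0.26. Of the 103, 26 had an unadjusted p under 0.05, against 11.1% of all genes. Without N979 and N988, 1 of 104 was called higher and 9 lower, against 0.815% and 1.79% of all genes. At 5% against control Ddit3 was called lower, and a pair of listed ATF4 targets were called higher, where 1.27% and 1.19% of all genes were. Gadd45a, a growth arrest gene that many stresses induce, rose by 3.48 ± 0.58 (adjusted p = 0.00967). Vldlr, a lipoprotein receptor, rose by 0.89 ± 0.19 (adjusted p = 0.0251). Without N979 and N988 the calls of Ddit3 (-1.16 ± 0.27, adjusted p = 0.0621) and Gadd45a (3.51 ± 0.75, adjusted p = 0.0680) were lost. Gadd45a measured 0.784 to 2.36 CPM in controls and 4.28 to 25.6 CPM at 5%, with 25.6 and 24.7 CPM in the 5% females.

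From 1% to 5% oil 6 of the 103 rose and 0 fell, where 0.861% of all genes rose and 0.471% fell, and 77 were positive with a median of 0.23. Without N979 and N988, 13 of 104 rose, against 2.65% of all genes, and the 6 were among those past the threshold. Txndc11 and Ero1lb, of disulfide formation, rose by 0.77 ± 0.16 and 0.96 ± 0.20 (adjusted p = 0.039 for both). Lman1, a cargo receptor for export from the ER, rose by 0.86 ± 0.19 (adjusted p = 0.0447). Srprb, a subunit of the signal recognition particle receptor, and Sec23b, of the COPII coat, rose by 0.86 ± 0.17 and 1.22 ± 0.23 (adjusted p = 0.039 and 0.0304). Bhlha15, a factor of secretory cells downstream of XBP1, rose by 4.47 ± 0.94 (adjusted p = 0.0424), from 0 to 0.683 CPM at 1% to 1.04 to 6.75 CPM at 5%, on at most 8 and 108 estimated reads a liver.

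The 8 calls between the doses (Pdia4, Hyou1, Dnajb9, Manf, Creld2, Eif2ak3, Ern1 and Sel1l) depended on which livers were fitted, as did calls over all genes. The count was 0 without 1% female N984, 1% male N971 or 5% male N976, and 1 without 1% male N972. Over all genes, 184 calls became 15, 13, 16 and 47 in those fits. The count was 2 without N983 or N987, 3 without control male N968 and 5 without control male N967. Over all genes it was then 39, 34, 74 and 97. Among the 38 genes it was 15 without N979 and N988 together, where 2.65% of all genes were called higher. All 8 were lost when sex was not a term in the fit, where 8 genes in all were called.

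The chaperones also differed between the sexes. Of the 38 genes 11 were called lower in females than in males over all diets and 0 higher, where 5.34% of all genes were lower and 3.60% higher. The 11 were Hspa5, Pdia3, Pdia4, Pdia6, Dnajb9, Manf, Hyou1, Eif2ak3, Herpud1, Sel1l and Asns, and 35 of the 38 were negative with a median of -0.47. All 14 chaperones were negative, with a median of -0.65, and 7 of them were called lower. Of all genes, 47.2% were negative. Hspa5 was -0.73 ± 0.19 (adjusted p = 0.0282), Dnajb9 -1.43 ± 0.26 (adjusted p = 0.00661) and Asns -3.38 ± 0.58 (adjusted p = 0.00377). Both livers with high nuclear noncoding RNA were female. Without them 5 genes were called lower, against 2.24% of all genes, and 2 of the 5 were chaperones. Leaving out single livers gave 5 to 14, with 5 without any of N979, N968, N983, N984, N972 or N976.

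**Figure D5:**
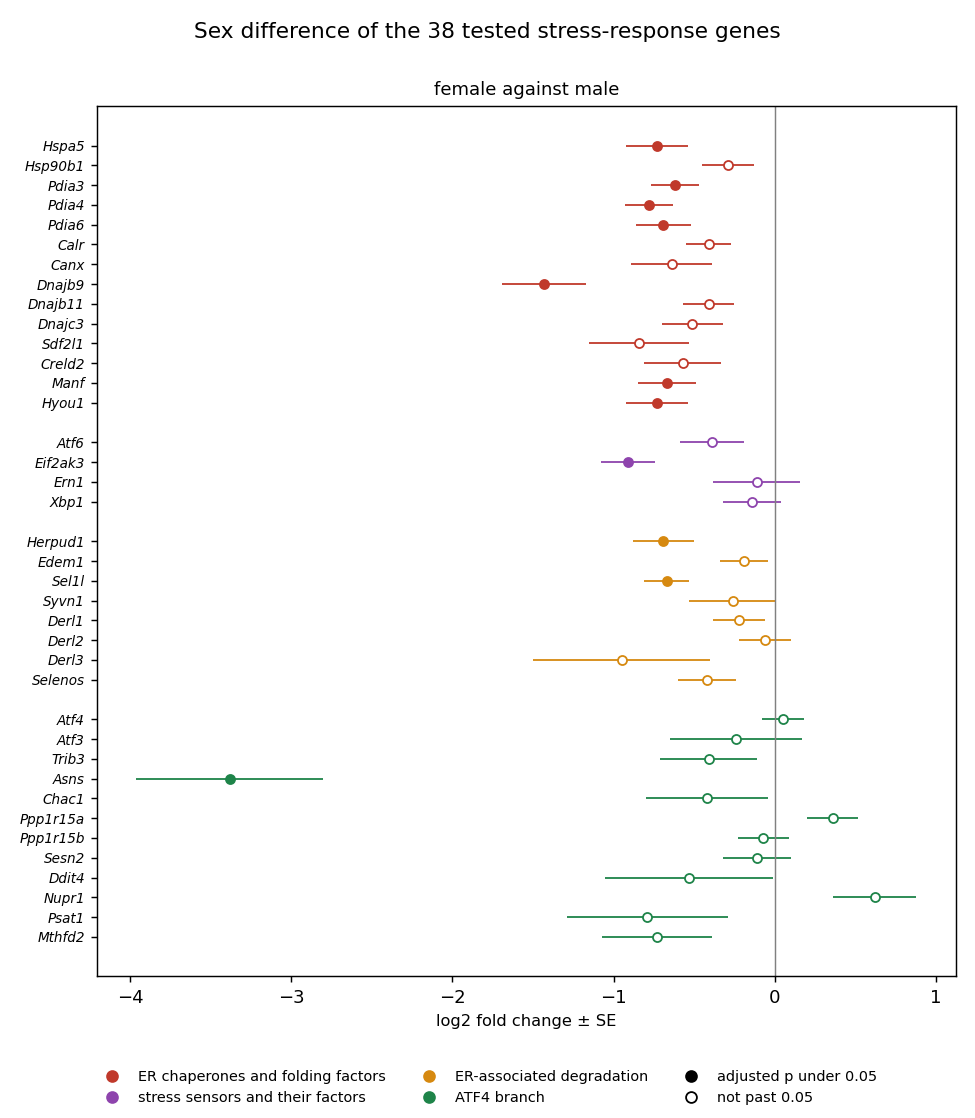
Log2 fold change of females against males over the 3 diets (x axis) with its standard error for the 38 tested genes (y axis), by gene class, filled where the adjusted p was under 0.05. All 14 chaperones lie left of 0, and Asns lies farthest left at -3.38.

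The responses to diet in females and males were compared directly by an interaction. No gene of the 13814 passed in any of the 3 comparisons, so 0% of genes and 0 of 38 were called, with 517, 645 and 893 genes at an unadjusted p under 0.05. Within females Hspa5 was -1.10 ± 0.33 at 1% against control and within males -0.85 ± 0.33. For Sdf2l1, a cofactor of ER Hsp40 proteins, the female minus male response at 5% against control was -1.79 ± 0.50 (adjusted p = 0.659 in edgeR's test), from 36.6 and 31.0 CPM in control females to 17.4 and 8.32 in 5% females, and from 28.2 and 48.3 CPM in control males to 45.8 and 55.3 in 5% males.

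Some other lists differed in level between the diets. The summed level of 10 Kupffer cell markers was 315 to 647 CPM in controls, 165 to 399 at 1% and 153 to 410 at 5%, with 0 of 10 called in any diet comparison. At 1% all 10 were negative, each with an unadjusted p under 0.05. The 7 sinusoidal endothelial markers summed to 136 to 243 CPM in controls, 177 to 276 at 1% and 126 to 166 at 5%. From 1% to 5% all 7 were negative with a median of -0.60, 4 had an unadjusted p under 0.05 and 0 were called. The 13 feeding and fasting genes summed to 4742 to 8161 CPM in controls, 2759 to 5703 at 1% and 4026 to 6506 at 5%. At 1% against control 0 were called, 11 were negative with a median of -1.27, and 8 had an unadjusted p under 0.05. At 5% against 1% 0 were called, 9 were positive with a median of 1.32, and 10 had such a p. Of all genes, 11.1% and 17.8% had such a p. At 5% against control 2 were called lower, Ppargc1a (-1.64 ± 0.38, adjusted p = 0.0425) and Pdk4 (-1.46 ± 0.33, adjusted p = 0.0380), against 1.27% of all genes. Another of the 13, Fasn, fatty acid synthase, was called in none of the diet comparisons. It measured 243 to 568 CPM at 1%, 587 CPM in N979 and 606 CPM in 5% male N975, and 1822 to 2480 CPM in the other 6 livers. The 15 clock genes summed to 237 to 313 CPM in controls, 316 to 508 at 1% and 402 to 466 at 5%. At 1% against control 1 of 15 was called higher, against 0.138% of all genes. At 5% against control 9 were called, 6 higher and 3 lower, against 1.19% and 1.27% of all genes. Between the doses 1 was called higher, against 0.861% of all genes. The clock output gene Dbp ran from 0.157 to 1.1 CPM in controls, 1.62 to 20 at 1% and 12.7 to 40 at 5%. Their part in the chaperone and Nupr1 differences was not tested.

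Markers of other cell types rich in ER were measured as well. All 9 pancreatic acinar markers stayed under 1 CPM in every liver, with Prss2 and Pnlip at 0, and summed to at most 0.690 CPM. The 9 plasma and B cell markers summed in females to 54.6 and 115 CPM in controls, 80.7 and 41.4 at 1% and 31.8 and 78.3 at 5%. In males they summed to 83.7 and 115 CPM in controls, 185 and 186 at 1% and 83.9 and 23.5 at 5%. Of the 7 tested, 5 were negative in females at 1% against control, with a median of -0.29, and 7 were positive in males, with a median of 0.85, and none was called. From 1% to 5% all 7 were negative over both sexes, with a median of -0.57, and 0 were called. In males all 7 were negative, with a median of -2.02. There 4 had an unadjusted p under 0.05, against 7.96% of all genes. In females 4 were positive and 3 negative, with a median of 0.67. Mzb1 was at most 0.859 CPM and Tnfrsf17 at most 0.107 CPM. The part of plasma and B cells in the chaperone differences was not tested.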

How the data were processed

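Livers of 12 mice were profiled by mRNA sequencing. Per the submitters' processing notes, kallisto, edgeR, limma and the GRCm39 build were used. The deposited gene and transcript tables hold estimated counts, which are not whole for 11.69% of gene values and were rounded to whole numbers here. The authors also deposited a CPM table of 11339 genes and a table of 261 genes with log2 fold changes and p-values, whose contrast is not named. Its log fold changes were taken as log2. That table also holds a signal value per library which the authors adjusted in a way not given in the sources used here, and these values were not used.

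Genes were named from their Ensembl IDs (48845 of 49398 matched a symbol). The quasi-likelihood test of edgeR 4.0.16 (R 4.3.3, robust, TMM scaling, filterByExpr over the 6 diet and sex groups) was fitted to all 12 livers with diet and sex as terms. Benjamini-Hochberg adjustment ran over all 13814 tested genes, with a threshold of 0.05, and the common biological coefficient of variation was 0.266. SE was taken from each estimate and its F statistic, as the estimate divided by F's square root. Values within a sex and interactions came from a fit of 6 groups. CPM in the text is TMM-scaled. Depth, from 5291385 to 15674130 reads, limits precision most for genes of few reads, such as Asns. Class means used log2(CPM + 0.5). Alternatives used RLE scaling, other filters, DESeq2 1.42.0, limma 3.58.1, transcript sums, no sex term, a noncoding RNA covariate and left-out livers.

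The members and lists were chosen with earlier results of these data known. Genes followed liver by liver were those called in any diet comparison plus Hspa5, Xbp1, Atf4, Atf6, Eif2ak3, Ern1, Atf3, Trib3, Asns and Chac1. Ddit4 was added after its values were seen.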

Additional observations from a re-analysis of the deposited data

Results flagged for a closer look

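Among 51 checks, of 17 genes in 3 diets of 4 livers each, 2 had a liver whose gap to its nearest neighbour was past Dixon's critical value for a group of 4, as a share of the group's range. Chance alone gives about 1 in 20. Both were in Chac1. Control male N968 read 5.05 CPM against 2 to 2.51 CPM in the other controls, a gap of 0.833 of the range. Male N971 on 1% oil read 9.31 CPM against 2.37 to 3.23 CPM, a gap of 0.875 of the range.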

How the results depend on the processing

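No called gene changed direction under any alternative, and counts over all genes mostly moved the same way as those of the 38. For 1% against control, where 1 of 38 was called, the count was 12 with no filter, 10 by DESeq2, 2 by limma voom, 0 with no sex term, 7 with the noncoding RNA covariate and 14 without N979 and N988, an alternative chosen after seeing the data. Over all genes, 31 were called, and 649, 268, 42, 10, 76 and 371 under those settings in that order. For 5% against control (1 called) it was 7 with no filter, 2 with the strict filter of 50 reads in 4 livers, 3 by DESeq2, 2 with the covariate and 4 without the pair, and over all genes 340 became 1011, 376, 736, 503 and 209. For 5% against 1% (8 called) it was 15 with no filter, 5 by limma voom, 0 with no sex term and 15 without the pair, and over all genes 184 became 1276, 183, 8 and 493.

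Chaperones called at 1% (0 of 14) became 8 with no filter, 6 by DESeq2, 5 with the covariate and 10 without the pair. At 5% against control (0) they became 2 with no filter, 1 with the covariate and 1 without the pair. At 5% against 1% (5) they became 8 with no filter, 3 by limma voom, 0 with no sex term and 10 without the pair. ATF4 branch calls at 1% (0) became 2 with no filter and 1 by DESeq2, by limma voom, with the covariate and without the pair. At 5% against control (1) they became 2 with no filter, the strict filter and DESeq2, and at 5% against 1% (0) 1 with no filter. Sex calls (11) became 5 without the pair. Interaction calls (0), summed over the 3 comparisons, became 4 with no filter. That setting also raised diet calls over all genes, from 31 to 649 at 1% and from 184 to 1276 between the doses. Its interaction calls over all genes are not given here, so the 4 are not read as a result about these genes. The cause was not tested.

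Leaving out 1 liver gave 0 to 6 of 38 at 1%, 1 to 3 at 5% and 0 to 10 between the doses. Over all genes it gave 13 to 184, 138 to 479 and 13 to 597 calls. For chaperones leaving out 1 liver gave 0 to 4, 0 to 1 and 0 to 7, and for the ATF4 branch 0 to 1, 1 to 2 and 0 to 0. Among the 38 genes it gave 5 to 14 for sex and 0 to 0 for the interaction. RLE scaling moved none of the 38 genes' log2 fold change by over 0.02 but lost the Manf and Sel1l calls, which lay close to the threshold, and the strict filter lost Manf. No paired analysis was possible because replicate numbers are not shared between the groups.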
